A study of Mus musculus with 19 samples.

Results

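The 10 genes described here are Zbtb16, Hif3a, Slc10a6, Fkbp5, Tsc22d3, Klf9, Sgk1, Mt1, Mt2 and Nr3c1, taken by name from the 54532 genes of the count table. They are known glucocorticoid-induced genes, the metallothioneins Mt1 and Mt2, and the glucocorticoid receptor gene Nr3c1. They were picked in part because some of them were among the largest falls in CD5L KO + PBS kidneys, so their difference between CD5L KO + PBS and WT + PBS is described here without a test. All 10 were kept by the filter on low counts in every comparison, with 10 to 132 counts per kidney for Hif3a, the lowest, and 4864 to 11967 for Mt1, the highest.

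The study asked how CD5L, a circulating protein made by macrophages, acts on kidneys injured by unilateral ureteral obstruction (UUO), in which the left ureter is tied and cut so that the kidney becomes inflamed and fibrotic. Bulk RNA-seq measured 19 whole obstructed kidneys on day 12 after UUO, from male mice of 8 to 9 weeks on a C57BL/6J background, and every animal had the obstruction. The 4 groups were WT + PBS (n = 5), WT + rCD5L (n = 5), CD5L KO + PBS (n = 4) and CD5L KO + rCD5L (n = 5), where KO mice lack CD5L and rCD5L is recombinant mouse CD5L from hamster CHO-S cells, injected into the abdomen daily at 0.5 mg per mouse. No kidney without obstruction was analysed here. The labels call the samples biological replicates, and each was taken as 1 mouse.

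Glucocorticoids are steroid hormones of the adrenal cortex. They bind the glucocorticoid receptor, a transcription factor held in the cytoplasm by HSP90 and its partner proteins, which then moves to the nucleus, binds glucocorticoid response elements in DNA and raises or lowers nearby genes. In the kidney, HSD11B2 inactivates the hormone in cells of the distal nephron, while HSD11B1 can regenerate it. Metallothioneins are small cysteine-rich proteins that bind zinc and copper. Their genes are switched on by the metal-sensing factor MTF1 through metal response elements, and also by glucocorticoids and oxidative stress.

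Promoter windows from RefSeq (GRCm38.p6), which run from 250 bases before to 50 bases after a start site, were found for 8 of the 10 genes, all but Zbtb16 and Nr3c1. The letters AGAACA, which make up each side of a glucocorticoid response element, were searched on both strands and lay in 18.97% of 32851 windows at least once and in 0.31% at least 3 times. Sgk1 has 6 windows, of which 3 hold these letters, 1 of them with 3 copies, starting at -242, -189 and -180, where -1 is the base before the start site. Slc10a6 has 1 copy, at -164, and Tsc22d3 has 1, at -185, in 1 of its 3 windows. The windows of Hif3a, Fkbp5, Klf9, Mt1 and Mt2 hold none. The core metal response element, TGCGCNC or TGCACNC on either strand, lay in 25.7% of windows at least once and in 1.97% at least 3 times. Mt2 had 4 cores, Mt1 had 3, and Hif3a and 1 window of Sgk1 had 1 each. The 250 bases before the start are printed 5′ to 3′ for these 3 genes because they hold most copies of these letters among the members. Capitals mark AGAACA on either strand in Sgk1 (chr10:21993640-21993889, + strand) and the metal response cores in Mt1 (chr8:94178839-94179088, + strand) and Mt2 (chr8:94172368-94172617, + strand).
Sgk1: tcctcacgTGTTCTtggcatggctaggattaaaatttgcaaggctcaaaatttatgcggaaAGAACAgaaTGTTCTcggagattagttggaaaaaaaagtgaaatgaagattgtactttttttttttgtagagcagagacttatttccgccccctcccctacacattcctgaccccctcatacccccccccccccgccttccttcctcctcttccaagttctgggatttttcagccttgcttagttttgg
Mt1: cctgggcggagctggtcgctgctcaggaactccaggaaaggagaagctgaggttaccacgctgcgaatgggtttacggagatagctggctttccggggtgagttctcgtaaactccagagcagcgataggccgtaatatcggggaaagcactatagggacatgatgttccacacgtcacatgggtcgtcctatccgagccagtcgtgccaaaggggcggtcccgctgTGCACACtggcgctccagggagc
Mt2: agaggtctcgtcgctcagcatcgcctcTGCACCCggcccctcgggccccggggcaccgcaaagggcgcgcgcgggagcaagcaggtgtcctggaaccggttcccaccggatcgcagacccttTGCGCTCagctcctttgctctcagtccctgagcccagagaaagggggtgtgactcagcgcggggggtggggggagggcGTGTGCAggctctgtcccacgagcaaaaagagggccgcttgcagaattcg
The other 2 cores of Mt1, at +2 and +20, and the last core of Mt2, at +4, lie past the start site and are not printed. A match of letters is a description of the window and no evidence of binding.

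The libraries held 17917491 to 23847090 counts per kidney. Cd5l itself had 5 to 13 counts in WT + PBS kidneys, 3 to 15 in WT + rCD5L kidneys and 0 in all 9 CD5L KO kidneys, where a count of 0 allows up to 3. The fourth CD5L KO + rCD5L kidney stood apart, with summed proximal tubule markers at 50800 CPM (counts scaled to library size) against 2790 to 8870 in the other 18 kidneys, and with the lowest sums of fibroblast (1210 CPM) and macrophage (417 CPM) markers. The third kidney of that group held skeletal muscle markers at 54.5 CPM against 2.18 to 4.37 elsewhere. Adrenal cortex markers, which a piece of adrenal gland would bring, summed to 5.29 to 10.7 CPM in all kidneys, and Cyp11b2 was at 0 in all 19. In bulk tissue, fewer cells of a type and less RNA per cell cannot be told apart.

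Per unit of transcript length, Mt1 was by far the highest of the 10 genes. Its median level over 19 kidneys was 198 FPKM (fragments per kilobase of transcript, scaled to library size), with a range of 138.5 to 371.3. Tsc22d3 and Klf9 came next at medians of 25.4 and 25.1 FPKM, followed by Nr3c1 at 13.6, Sgk1 at 13.3 and Fkbp5 at 10.6. The ranges of Tsc22d3 (16.3 to 49.1 FPKM) and Klf9 (15.6 to 44.6 FPKM) overlapped almost completely, and the ranges of the next 3 genes overlapped as well. Mt2 had a median of 5.94 FPKM, Slc10a6 2.18, Zbtb16 1.63 and Hif3a 0.252. The genes also differed in how far the kidneys spread. Between the lowest and the highest kidney the CPM of Zbtb16 differed 24.1-fold and that of Hif3a 12.9-fold, against 6.29-fold for Sgk1, 5.97-fold for Slc10a6, 5.23-fold for Mt2, 3.17-fold for Fkbp5, 3.01-fold for Tsc22d3 and Klf9, 2.74-fold for Mt1 and 1.84-fold for Nr3c1.

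**Figure D1:**
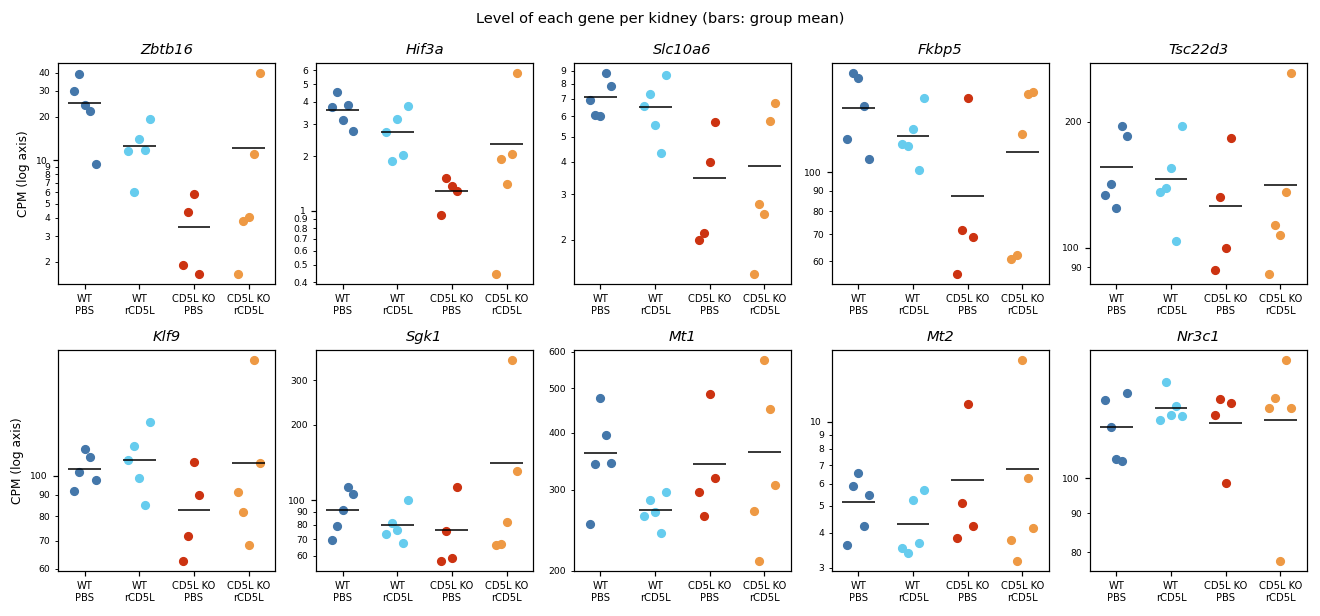
Level of each gene in each kidney, in CPM on a log axis that differs between panels. Each point is 1 kidney and each bar is a group mean (n = 5, 5, 4 and 5 from left to right). Zbtb16, Hif3a and Slc10a6 are lower in all 4 CD5L KO + PBS kidneys than in all 5 WT + PBS kidneys, and single CD5L KO + rCD5L kidneys stand high for Zbtb16, Tsc22d3, Sgk1 and Mt2.

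The receptor gene Nr3c1 (ENSMUSG00000024431) was the steadiest of the 10. Its mean was 117 CPM ± 11.2 (SD, n = 5) in WT + PBS, 124 ± 5.80 (n = 5) in WT + rCD5L, 118 ± 13.2 (n = 4) in CD5L KO + PBS and 119 ± 24.4 (n = 5) in CD5L KO + rCD5L. The groups overlapped throughout. The log2 fold change of CD5L KO + PBS over WT + PBS was 0.0079 ± 0.089 (SE).

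Zbtb16 (ENSMUSG00000066687, chr9:48654297-48836222) encodes PLZF, a zinc finger repressor that glucocorticoids induce strongly in many cells. The WT + PBS kidneys held 30.1, 39.2, 24.1, 21.9 and 9.35 CPM, and the WT + rCD5L kidneys 11.5, 6.07, 14.0, 11.8 and 19.1. The CD5L KO + PBS kidneys held 1.90, 4.37, 5.87 and 1.65 CPM, and the CD5L KO + rCD5L kidneys 1.66, 3.82, 4.09, 11.1 and 39.8. Every CD5L KO + PBS kidney was below every WT + PBS and every WT + rCD5L kidney, while the CD5L KO + rCD5L kidneys ran from the lowest range of the series to its highest value.

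Hif3a (ENSMUSG00000004328, chr7:17031507-17062427) encodes a hypoxia-inducible factor subunit. WT + PBS kidneys held 3.76, 4.54, 3.17, 3.87 and 2.76 CPM, and WT + rCD5L kidneys 2.72, 1.88, 3.22, 2.03 and 3.77. CD5L KO + PBS kidneys held 0.948, 1.52, 1.37 and 1.29 CPM, and CD5L KO + rCD5L kidneys 0.448, 1.93, 1.39, 2.07 and 5.78. The 4 CD5L KO + PBS kidneys again lay below all 10 WT kidneys, and the fifth CD5L KO + rCD5L kidney, the highest for Zbtb16, was also the highest of all 19 for Hif3a.

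Slc10a6 (ENSMUSG00000029321, chr5:103605711-103629403) encodes a transporter of sulfated steroids. It stood at 6.90, 6.08, 6.01, 8.81 and 7.88 CPM in WT + PBS kidneys and at 6.58, 7.33, 5.54, 4.31 and 8.66 in WT + rCD5L kidneys. It stood at 1.99, 2.12, 4.0 and 5.69 CPM in CD5L KO + PBS kidneys and at 1.48, 2.75, 2.50, 5.75 and 6.74 in CD5L KO + rCD5L kidneys. The CD5L KO + PBS kidneys did not reach the lowest WT + PBS kidney, although the fourth came within 1 CPM of it.

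Fkbp5 (ENSMUSG00000024222, chr17:28399094-28517527) encodes a co-chaperone of HSP90 that lowers the receptor's affinity for hormone. The values were 122, 177, 172, 146 and 108 CPM in WT + PBS and 118, 117, 128, 101 and 154 CPM in WT + rCD5L. They were 55.9, 71.8, 154 and 68.9 CPM in CD5L KO + PBS and 60.9, 62.3, 125, 157 and 159 CPM in CD5L KO + rCD5L. In both CD5L KO groups the kidneys fell into low and high values with none in between: 3 of 4 CD5L KO + PBS kidneys and 2 of 5 CD5L KO + rCD5L kidneys were below all 10 WT kidneys, and the rest lay inside the WT range.

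Tsc22d3 (ENSMUSG00000031431, chrX:140539528-140600659) encodes GILZ, an anti-inflammatory leucine zipper protein, and Klf9 (ENSMUSG00000033863) a Krüppel-like transcription factor. Tsc22d3 ranged over 125 to 196 CPM in WT + PBS, 104 to 195 in WT + rCD5L, 88.6 to 183 in CD5L KO + PBS and 86.8 to 261 in CD5L KO + rCD5L. Klf9 ranged over 92.1 to 116 CPM in WT + PBS, 85.1 to 134 in WT + rCD5L, 62.7 to 108 in CD5L KO + PBS and 68.4 to 188 in CD5L KO + rCD5L. All 4 groups overlapped for Tsc22d3 and for Klf9.

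Sgk1 (ENSMUSG00000019970, chr10:21882184-21999903) encodes a kinase that raises sodium uptake through the epithelial sodium channel and answers to both glucocorticoids and aldosterone. WT + PBS kidneys held 69.1, 79.3, 91.8, 113 and 106 CPM, and WT + rCD5L kidneys 73.1, 81.4, 76.2, 67.5 and 99.8. CD5L KO + PBS kidneys held 57.4, 75.5, 58.8 and 113 CPM, and CD5L KO + rCD5L kidneys 66.6, 66.7, 81.6, 361 and 130. The value of 361 CPM came from the fourth CD5L KO + rCD5L kidney, the one with the high proximal tubule markers, which also gave the highest Klf9 (188 CPM). The part of that tissue makeup in these values was not tested.

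Mt1 (ENSMUSG00000031765, chr8:94179082-94180327) and Mt2 (ENSMUSG00000031762, chr8:94172664-94173568) lie side by side on chromosome 8. Mt1 stood at 253, 341, 476, 395 and 343 CPM in WT + PBS and at 263, 285, 269, 241 and 296 in WT + rCD5L. It stood at 297, 263, 486 and 319 CPM in CD5L KO + PBS and at 270, 210, 576, 451 and 307 in CD5L KO + rCD5L. The WT + rCD5L kidneys were the lowest group on average and the most alike. Mt2 ranged from 3.63 to 6.57 CPM in WT + PBS, 3.40 to 5.72 in WT + rCD5L, 3.84 to 11.6 in CD5L KO + PBS and 3.18 to 16.6 in CD5L KO + rCD5L. Of the 588 exonic bases of Mt2, 432 are shared with the antisense gene Gm45774 (1 to 30 counts per kidney). The strand setting of the counting is not given in the sources used here, so reads of this pair cannot be told apart and the level of Mt2 is uncertain.

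Between CD5L KO + PBS and WT + PBS, all 7 glucocorticoid-induced members had lower fitted levels in CD5L KO + PBS, while Mt1 and Nr3c1 lay near 0 and Mt2 was higher. The log2 fold change was -2.86 ± 0.43 (SE, n = 4 and 5) for Zbtb16, -1.50 ± 0.21 for Hif3a, -1.07 ± 0.28 for Slc10a6 and -0.74 ± 0.26 for Fkbp5. It was -0.33 ± 0.13 for Klf9, -0.32 ± 0.20 for Tsc22d3 and -0.28 ± 0.20 for Sgk1. Single CD5L KO + PBS kidneys moved some of these values. Without the first, Klf9 came to -0.21, Tsc22d3 to -0.18 and Sgk1 to -0.16. Without the third, Fkbp5 came to -1.15 and Sgk1 to -0.17, and without the fourth, Tsc22d3 came to -0.55 and Sgk1 to -0.52. Mt1 was at -0.091 ± 0.19 and Mt2 at 0.25 ± 0.31, a size close to that of Sgk1, and Mt2 came to -0.23 without the third CD5L KO + PBS kidney. Of the 10 members, 3 had no overlap between the groups, all lower in CD5L KO + PBS (6.75% of 17579 genes tested did so), and 3 had a log2 fold change of -1 or below (0.455% of genes). Since the members were chosen on this difference, nothing is read from these counts. Just inside the limit of -1 was Slc10a6, at -1.07, and just outside it Fkbp5, at -0.74. Without the third CD5L KO + PBS kidney, 5 members had no overlap, Fkbp5 and Klf9 being the additions, and the background share was 8.82%. In the same kidneys the fibroblast marker sum ran from 2300 to 3160 CPM in CD5L KO + PBS against 3230 to 5010 in WT + PBS, with 4 of 6 markers called lower, and 3 of 5 endothelial markers and 1 of 6 macrophage markers were called lower, where 5.4% of all genes were. Adipocyte markers summed to a median of 147 CPM (highest kidney 208) in CD5L KO + PBS against a median of 52.0 CPM (highest kidney 179) in WT + PBS, with 6 of 6 higher and 0 called by edgeR's test (3 at an unadjusted p under 0.05). Over all genes, 4669 of 17579 were at an unadjusted p under 0.05 in this comparison. The part of these cell types in the members' values was not tested.

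**Figure D2:**
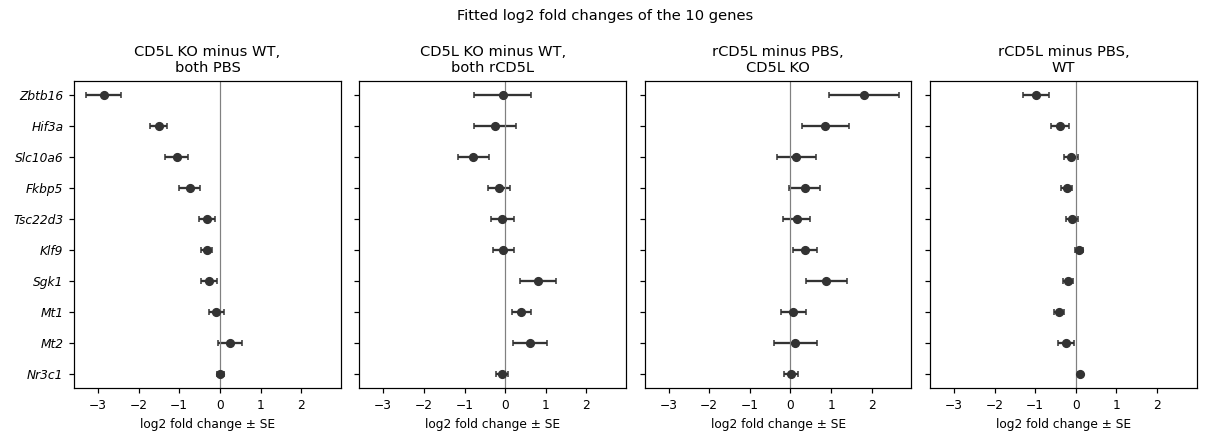
Fitted log2 fold changes with standard errors (edgeR) of the 10 genes in 4 comparisons, on 1 shared axis. The comparison on the left is the one used to choose the genes. Zbtb16 runs from -2.86 in that comparison to 1.81 for rCD5L minus PBS in CD5L KO, with the widest bars in the comparisons that hold the CD5L KO + rCD5L kidneys.

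The comparison of CD5L KO + rCD5L with WT + rCD5L asked whether the genotypes differed when both received the protein, and it shared no kidney with the comparison whose falls guided the choice of genes. Results from all 4 groups were known when the genes were chosen, so it is not an independent test. None of the 10 members was called. The quasi-likelihood test of edgeR, adjusted over all genes, called 0 of 17360 genes (0.0%) at an adjusted p under 0.05. At an unadjusted p under 0.05 were 3090 genes (17.8%), none of them a member. DESeq2 called 150 genes, again with no member. The groups did not overlap for 7.52% of genes and for none of the members. All 8 proximal tubule markers had higher fitted levels in CD5L KO + rCD5L (median log2 fold change 1.87, 0 called by edgeR, 7 at an unadjusted p under 0.05). Their sum was 50800 CPM in the fourth CD5L KO + rCD5L kidney and 3600 to 8870 in the other 4, against 2790 to 4690 in WT + rCD5L. Distal nephron markers (6 of 6, median 0.60) and adipocyte markers (6 of 6, median 0.80) were also higher in CD5L KO + rCD5L. Fibroblast markers (6 of 6, median -0.40), macrophage markers (6 of 6, median -0.26), lymphocyte markers (6 of 6, median -0.43) and endothelial markers (4 of 5, median -0.25) were lower. None of these was called, and 3 endothelial, 2 fibroblast and 2 distal nephron markers were at an unadjusted p under 0.05. The part of these cell types in the members' values was not tested. Zbtb16 differed by -0.063 ± 0.70 (SE, log2, adjusted p = 0.968) and Hif3a by -0.25 ± 0.51 (adjusted p = 0.81). These 2 values rested on the fifth CD5L KO + rCD5L kidney. Without it the log2 fold change was -1.33 ± 0.49 for Zbtb16 and -0.94 ± 0.41 for Hif3a, with edgeR adjusted p of 0.204 and 0.237. On the log2(FPKM + 0.1) scale, with all 10 kidneys, they were at -0.77 ± 0.65 and -0.39 ± 0.37, and on the log2(FPKM + 1) scale at -0.34 ± 0.41 and -0.079 ± 0.11. For Slc10a6 the difference was -0.78 ± 0.38 (adjusted p = 0.297), with 3 of 5 CD5L KO + rCD5L kidneys below all WT + rCD5L kidneys. Fkbp5 differed by -0.16 ± 0.27 (adjusted p = 0.773), Tsc22d3 by -0.069 ± 0.28 (adjusted p = 0.905) and Klf9 by -0.042 ± 0.25 (adjusted p = 0.938). These values near 0 also depended on single kidneys. Without the fifth CD5L KO + rCD5L kidney Fkbp5 came to -0.32 ± 0.28 and Tsc22d3 to -0.42 ± 0.19, and without the fourth Fkbp5 came to -0.30 ± 0.26 and Klf9 to -0.34 ± 0.15. Without the first, Fkbp5 came to 0.0096.

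Sgk1 was the exception among the induced genes, with a higher mean in CD5L KO + rCD5L (0.81 ± 0.43, adjusted p = 0.335). Without the fourth kidney of that group its log2 fold change was 0.096 ± 0.19, and on the FPKM scales with all 10 kidneys it was 0.44 (pseudocount 1) and 0.45 (pseudocount 0.1). Mt1 was at 0.39 ± 0.23 (edgeR adjusted p = 0.373) and Mt2 at 0.62 ± 0.42 (edgeR adjusted p = 0.431). Without the third CD5L KO + rCD5L kidney, the one with skeletal muscle markers and the highest Mt1 and Mt2, these came to 0.18 and -0.016. On the FPKM scales Mt2 was at 0.33 and 0.35. An adjusted p above the threshold does not show that the genotypes were alike, and the standard errors of 0.70 for Zbtb16 and 0.51 for Hif3a leave wide intervals.

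In CD5L KO mice, rCD5L was compared with PBS. This comparison and the next share PBS kidneys with the one that chose the members and are not independent of that choice. All 10 members had higher fitted levels with rCD5L, none was called, and none had an unadjusted p under 0.05. In all, edgeR called 0 of 17467 genes (0.0%), with 502 (2.87%) at an unadjusted p under 0.05, and DESeq2 called 10, with no member. The groups overlapped for all 10 members and were apart for 2.35% of genes. The log2 fold change was 1.81 ± 0.87 for Zbtb16 (edgeR adjusted p = 0.897) and 0.86 ± 0.58 for Hif3a (edgeR adjusted p = 0.897). Without the fifth CD5L KO + rCD5L kidney the value for Zbtb16 was 0.55 ± 0.59 and that for Hif3a 0.16 ± 0.44. With all kidneys, on the log2(FPKM + 1) and log2(FPKM + 0.1) scales, Zbtb16 was at 0.60 and 0.99 and Hif3a at 0.13 and 0.37. Only 2 of 5 CD5L KO + rCD5L kidneys were above all CD5L KO + PBS kidneys for Zbtb16, and 3 of 5 for Hif3a. Sgk1 was at 0.88 ± 0.51, and at 0.18 ± 0.26 without the fourth kidney. Klf9 was at 0.36 ± 0.29, and at 0.069 ± 0.18 without that kidney. Fkbp5 was at 0.35 ± 0.38, and at 0.78 ± 0.36 without the third CD5L KO + PBS kidney, 0.19 without the first kidney of that group and 0.19 and 0.21 without the fifth and the fourth CD5L KO + rCD5L kidney. The other 5 members lay between 0.0053 and 0.15, and each of them changed sign when some 1 kidney was left out. All 8 proximal tubule markers were higher with rCD5L as well (median log2 fold change 1.37, 0 called by edgeR, 1 at an unadjusted p under 0.05), as were 6 of 6 distal nephron markers (median 0.59) and 3 of 3 skeletal muscle markers tested (median 1.37). Of 4 epididymis markers tested, 3 were higher and 1 lower (median 1.08, 0 called, 2 at an unadjusted p under 0.05). The part of these cell types in the members' values was not tested.

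In WT mice, 8 of 10 members had lower fitted levels with rCD5L than with PBS. Of 17455 genes, edgeR called 0 (0.0%), with 2797 (16.0%) at an unadjusted p under 0.05, 2 members among them, and DESeq2 called 542. The groups overlapped for all 10 members and were apart for 3.6% of genes. Zbtb16 differed by -0.98 ± 0.32 (edgeR adjusted p = 0.16), yet only 1 of 5 WT + rCD5L kidneys was below all WT + PBS kidneys. Over all alternatives run, the adjusted p of Zbtb16 lay between 0.0679 and 1.0. Mt1 differed by -0.41 ± 0.13 (edgeR adjusted p = 0.144). DESeq2 called Mt1, as the only member, at an adjusted p of 0.0331, and edgeR called it when the first WT + PBS kidney was left out (-0.52, adjusted p = 0.0434). Its adjusted p over all alternatives ranged from 0.0331 to 1.0. Hif3a was at -0.39 ± 0.21, Mt2 at -0.24 ± 0.20, Fkbp5 at -0.22 ± 0.13 and Sgk1 at -0.19 ± 0.13. The 8 proximal tubule markers were lower in WT + rCD5L as well, with 0 called by edgeR, 5 at an unadjusted p under 0.05 and a median log2 fold change of -0.48. Of the endothelial markers 4 of 5 were lower (median -0.15, 0 called, 3 at an unadjusted p under 0.05, 1 without overlap), and all 6 lymphocyte markers were higher (median 0.50, 0 called, 1 at an unadjusted p under 0.05). Of 4 epididymis markers tested, 3 were higher and 1 lower (median 0.78, 0 called, 2 at an unadjusted p under 0.05). The part of these cell types in the members' values was not tested.

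Whether rCD5L acted differently in the 2 genotypes was tested as an interaction over all 19 kidneys, which again holds the kidneys that chose the members. edgeR called 0 of 18454 genes (0.0%), with 1154 (6.25%) at an unadjusted p under 0.05, 2 members among them, and DESeq2 called 0. Zbtb16 had an interaction of 2.81 ± 0.94 on the log2 scale (edgeR adjusted p = 0.731), which fell to 1.53 ± 0.69 without the fifth CD5L KO + rCD5L kidney. Hif3a was at 1.27 ± 0.61 (edgeR adjusted p = 0.731), and at 0.57 ± 0.46 without that kidney. On the log2(FPKM + 1) scale the 2 interactions were 1.27 and 0.24. Sgk1 was at 1.10 ± 0.53, and at 0.38 ± 0.30 without the fourth kidney of that group. Fkbp5 was at 0.60 ± 0.42, and at 1.004 ± 0.37 without the third CD5L KO + PBS kidney. Mt1 was at 0.50 ± 0.33, and at 0.28 ± 0.29 without the third CD5L KO + rCD5L kidney. Nr3c1 was at -0.070 ± 0.18. All 8 proximal tubule markers had a positive interaction (median 1.92, 0 called by edgeR, 8 at an unadjusted p under 0.05), as had 6 of 6 distal nephron markers (median 0.57) and 4 of 4 skeletal muscle markers tested (median 2.003), while 6 of 6 lymphocyte markers had a negative one (median -0.41), and their part in the members' values was not tested.

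Apart from the group means, several members varied together from kidney to kidney. This was measured on log2 CPM after each group's mean was subtracted, which removes what the choice of genes used. Over 19 kidneys Mt1 and Mt2 had r = 0.851 and Spearman's r = 0.779 (permutation p = 0.00044 and 0.00166, 100000 permutations within groups, adjusted p over the 10 pairs computed = 0.0044 and 0.00905). Fkbp5 and Zbtb16 had r = 0.754 and Spearman's r = 0.772 (permutation p = 0.00183 and 0.00181, adjusted p = 0.00915 and 0.00905). Both pairs kept a positive r in each of the 4 groups, from 0.464 to 0.931 for the metallothioneins and from 0.592 to 0.809 for Fkbp5 and Zbtb16. Without the 2 kidneys farthest from the median, r was 0.751 for the first pair and 0.697 for the second. The 5 genes outside the members most like Mt1 had r of 0.916 to 0.944 with it. The 5 most like Fkbp5 had r of 0.799 to 0.884. The share of all genes with such r was not computed, so covariation is not shown to be particular to the members. Mt1 and Mt2 counts could share reads of the antisense gene only for Mt2.

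Fkbp5 also went with Mt1 at r = 0.719 and Spearman's r = 0.704 (permutation p = 0.0155 and 0.00819, adjusted p = 0.0516 and 0.0205), so that the adjusted p passed 0.05 for the ranks alone. Without the 2 farthest kidneys r was 0.645. The same held for Mt2 (r = 0.652, Spearman's r = 0.689, permutation p = 0.0259 and 0.00726, adjusted p = 0.0518 and 0.0205, r = 0.524 without the 2), for Klf9 (r = 0.611, Spearman's r = 0.646, permutation p = 0.0367 and 0.0104, adjusted p = 0.0611 and 0.0208, r = 0.578 without the 2) and for Hif3a (r = 0.593, Spearman's r = 0.618, permutation p = 0.0259 and 0.0129, adjusted p = 0.0518 and 0.0215, r = 0.55 without the 2). Slc10a6, Sgk1, Tsc22d3 and Nr3c1 did not pass with either measure after adjustment. Their r with Fkbp5 was 0.594, 0.451, 0.341 and -0.349 and their Spearman's r 0.598, 0.416, 0.349 and -0.432. The permutation p, adjusted over the pairs, was 0.114, 0.227, 0.352 and 0.381 for r and 0.0584, 0.167, 0.214 and 0.131 for Spearman's r. Proximal tubule markers moved with Mt1 in some groups. In WT + PBS their sums of 3520, 4170, 7480, 5060 and 4920 CPM had the same order as Mt1, and the third kidneys of CD5L KO + PBS (7470 CPM) and CD5L KO + rCD5L (8870 CPM) were high for both. In WT + rCD5L the kidney with the lowest sum (2790 CPM) had the highest Mt1. The part of tissue makeup in these correlations was not tested. Over all 19 kidneys the receptor gene was the only member with a negative r with Fkbp5. Its r was negative in each of the 4 groups, from -0.915 to -0.094. Within single groups other members had a negative r too. In WT + PBS it was -0.586 for Slc10a6, -0.457 for Tsc22d3 and -0.123 for Sgk1. In CD5L KO + PBS it was -0.196 for Tsc22d3 and -0.298 for Sgk1. In the remaining groups these genes had a positive r.

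**Figure D3:**
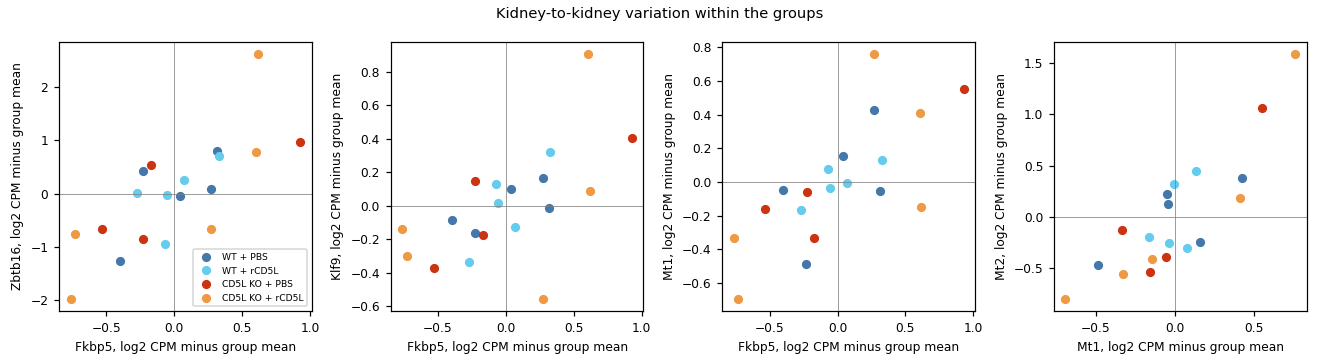
Deviation of each kidney from its group mean, in log2 CPM without a prior count, for 4 pairs of genes. Each point is 1 of 19 kidneys, coloured by group. The points rise from lower left to upper right in each panel (r = 0.754, 0.611, 0.719 and 0.851 from left to right), most tightly for Mt1 and Mt2.

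By the same measure, the genes most like Fkbp5 among 14316 were Slc39a14 (r = 0.884), which imports zinc and iron, Zhx3 (r = 0.847), a zinc finger and homeobox factor, Mcf2l (r = 0.837), Acot2 (r = 0.814), a mitochondrial acyl-CoA thioesterase, and Anapc16 (r = 0.799), a subunit of the anaphase-promoting complex. The genes most like Mt1 were Pip4k2c (r = 0.944), a phosphoinositide kinase, Osbpl10 (r = 0.935), an oxysterol-binding protein relative, Tinagl1 (r = 0.932), a matrix protein, Sesn2 (r = 0.917), a stress-induced sestrin, and Nipal3 (r = 0.916). These are the top of a ranking over 19 kidneys and carry no test.

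Related genes were described for CD5L KO + PBS against WT + PBS by lists that hold none of the members. Of 27 further induced genes 26 were tested, 19 of them lower and 7 higher in CD5L KO + PBS, with a median log2 fold change of -0.16 against -0.0046 over all genes tested. By edgeR's test 3 were called lower and 1 higher, where 5.4% and 5.13% of all genes were. The 3 were Pdk4, which restrains glucose oxidation (-0.48 ± 0.13, adjusted p = 0.0345), Fbxo32, a ubiquitin ligase of muscle wasting (-0.37 ± 0.10, adjusted p = 0.0356), and Foxo3, a transcription factor of the fasting response (-0.27 ± 0.070, adjusted p = 0.0302). The 1 was Anxa1, an anti-inflammatory annexin (0.32 ± 0.070, adjusted p = 0.0155). Of this list 1 gene was called without the second CD5L KO + PBS kidney and 1 without the fourth WT + PBS kidney. It had 2 calls without the first or the fourth CD5L KO + PBS kidney or without the first or the second WT + PBS kidney. Dusp1, a phosphatase that shuts down MAP kinases, was at -0.45 ± 0.18 (edgeR adjusted p = 0.125) and Per1, a clock gene with a receptor-bound enhancer, at -0.24 ± 0.30 (edgeR adjusted p = 0.663).

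Of 14 genes that glucocorticoids repress, 9 were higher and 5 lower in CD5L KO + PBS, with a median of 0.059. The only call was Ccl2, a chemokine that draws monocytes, which rose by 0.67 ± 0.11 (edgeR adjusted p = 0.00566), from a mean of 29.7 to 47.6 CPM. Over all genes tested there, edgeR called 5.13% higher and 5.4% lower. Of 17 genes of the receptor machinery and hormone handling, 8 were higher and 9 lower, and Hsp90aa1, the chaperone that holds the receptor, was called higher (0.29 ± 0.074, adjusted p = 0.0273). That list had 0 calls without the fourth CD5L KO + PBS kidney or without the first, the second or the fourth WT + PBS kidney. The mineralocorticoid receptor gene Nr3c2 (0.22 ± 0.11, edgeR adjusted p = 0.22), Hsd11b1 (0.17 ± 0.059, edgeR adjusted p = 0.0812) and Hsd11b2 (0.25 ± 0.13, edgeR adjusted p = 0.25) did not pass.

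Of 18 genes of metal handling 15 were tested, 10 of them higher and 5 lower. The zinc exporter gene Slc30a4 was called higher (0.20 ± 0.055, adjusted p = 0.0366) and Slc39a14, the gene most like Fkbp5, was called lower (-0.46 ± 0.13, adjusted p = 0.0398). The list had 0 calls without the first or the second CD5L KO + PBS kidney, without the second or the fourth WT + PBS kidney, and on both FPKM scales. Over all genes tested, edgeR called 5.13% higher and 5.4% lower. Mtf1, the factor that drives the metallothionein genes, was at -0.0069 ± 0.096 and Slc30a1, a zinc exporter gene that MTF1 induces, at 0.010 ± 0.067. Mt3 had 2 to 23 counts per kidney and Mt4 0 to 1, too few to test. Of 14 clock genes, whose transcripts follow the time of day, 7 were lower and 7 higher, and Nr1d1 was called lower (-0.53 ± 0.10, edgeR adjusted p = 0.00867). The hour at which kidneys were collected is not given in the sources used here, and its part in these values was not tested.

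None of the calls in the 5 lists remained when all 19 kidneys shared 1 fit, in which edgeR called 12 genes in all for this comparison. In each of the other 4 comparisons edgeR, fitted with the filter to the groups compared, called 0 genes of any of the 5 lists. Without the filter it called 1 further induced gene for rCD5L in WT, among 137 genes in all. Its shared fit of 19 kidneys called 1 further induced, 1 repressed and 2 clock genes between the rCD5L groups, among 1291 genes in all, and DESeq2 called 1 further induced gene for rCD5L in WT and 1 clock gene between the rCD5L groups. Unadjusted p under 0.05 was reached there by 1 to 6 of 26 further induced genes, with 6 for rCD5L in WT, and by 0 to 3 genes of each other list. Over all genes, 17.8% reached it between the rCD5L groups, 2.87% for rCD5L in CD5L KO, 16.0% for rCD5L in WT and 6.25% for the interaction. Dusp1 was at -0.45 ± 0.15 for rCD5L in WT (edgeR adjusted p = 0.163).

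**Figure D4:**
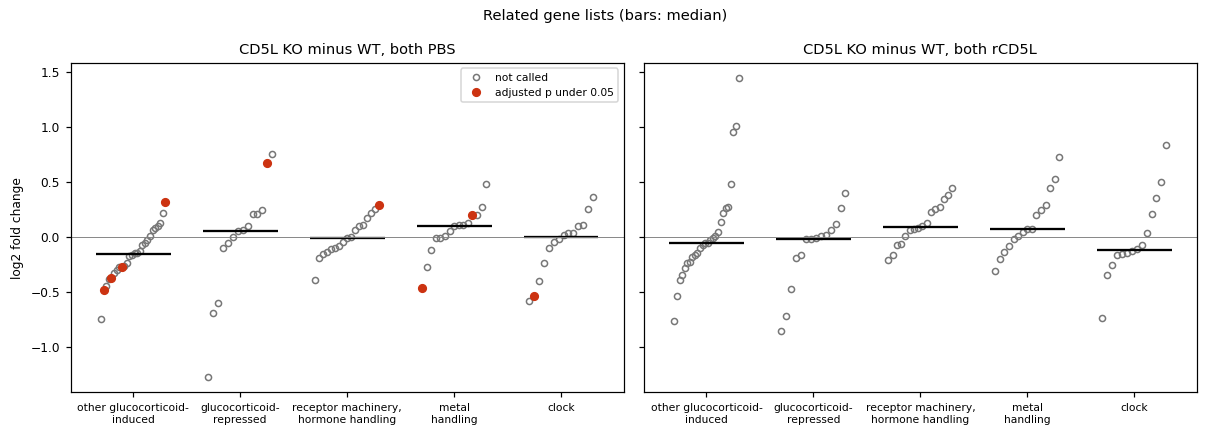
Log2 fold change of each tested gene of the 5 related lists, for CD5L KO minus WT with PBS (left) and with rCD5L (right). Each point is 1 gene, filled where edgeR's adjusted p was under 0.05, and each bar is the median of the list. The left panel holds 9 filled points, 4 of them among the further induced genes, and the right panel none.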

How the data were processed

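The 10 genes and all gene lists were chosen with earlier results of these data known. The authors deposited raw counts per gene, made from reads in pairs (libraries primed at random) with Trimmomatic, HISAT2 (GRCm38) and featureCounts, per the labels. Their versions and the handling of strand and of reads with several matches are not given in the sources used here. The authors also deposited FPKM values, used for levels between genes and as an alternative. Every column matched 1 sample by name.

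Counts were scaled with TMM factors and given as CPM. Genes were kept by filterByExpr (minimum count 10) within each comparison. Groups were compared in pairs with edgeR 4.0.16 (quasi-likelihood F test, Benjamini-Hochberg over all genes, threshold 0.05), with DESeq2 1.42.0 and limma 3.58.1 on log2(FPKM + 1) and log2(FPKM + 0.1) as alternatives. The fits were tested on simulated data. The study itself used DESeq2. Whether its fits held 2 groups or all samples is not given in the sources used here. Covariation used log2 CPM (prior count 2) with two-sided permutations within groups (Python 3.11.15). The limit given for a count of 0 covers counting error only. Standard errors of fold changes come from the fits and include the spread between kidneys. Those of edgeR were worked out from the log2 fold change and the F statistic. Samples of the same group differed by more than sampling noise, so none was counted as a repeat. For the genes named from each list, the rule was every called gene, at most 6 per list and comparison, plus Per1, Dusp1, Nr3c2, Hsd11b1, Hsd11b2, Mtf1, Slc30a1, Mt3 and Mt4, and the 5 genes most like Fkbp5 and most like Mt1 (mean log2 CPM of at least 1). The lowest and highest total counts were 17917491 and 23847090. Alternatives were RLE factors, no filter, all kidneys in 1 fit, a replicate block, a gene length offset, another pseudocount and each kidney left out.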

Additional observations from a re-analysis of the deposited data

Results flagged for a closer look

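In 6 of 40 sets of values (10 genes in 4 groups), 1 kidney lay so far above the rest of its group that the gap passed Dixon's 95% limit. Chance marks about 1 in 20 groups, or 2.0 of 40, if values are normally spread, and the 40 sets share kidneys and genes that vary together. The limit was applied to CPM without a log, and all 6 marked values were high. This rate is therefore only a rough guide. The fifth CD5L KO + rCD5L kidney was marked for Zbtb16 (39.8 CPM, next 11.1) and for Tsc22d3 (261 CPM, next 136.0). Its marker sums for proximal tubule (3600 CPM) and for adipocytes (25.1 CPM) were the lowest of its group. The fourth CD5L KO + rCD5L kidney was marked for Sgk1 (361 CPM, next 130), and it is the kidney with proximal tubule markers at 50800 CPM. The third CD5L KO + PBS kidney was marked for Fkbp5 (154 CPM, next 71.8) and for Mt2 (11.6 CPM, next 5.11). The third CD5L KO + rCD5L kidney, which held skeletal muscle markers at 54.5 CPM, was marked for Mt2 (16.6 CPM, next 6.28). Why these kidneys stood apart was not tested.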

How the results depend on the processing

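Between CD5L KO + PBS and WT + PBS, the members with a log2 fold change of -1 or below numbered 3, and 1 with log2(FPKM + 1), a scale that understates low genes (Zbtb16 -1.61, Hif3a -0.32). Calls in the related lists there were, for further induced genes, 4, with 0 in 1 fit of all 19 kidneys and 2 with the length offset. For repressed genes they were 1, with 2 by DESeq2, 2 without a filter and 0 in the shared fit. For receptor machinery they were 1, with 3 by DESeq2 and 0 in the shared fit. For metal handling they were 2, with 1 without a filter, 0 in the shared fit and 0 on both FPKM scales. For clock genes they were 1, with 4 by DESeq2, 0 in the shared fit and 2 on both FPKM scales. Over all 17579 genes tested there, edgeR called 1850 and DESeq2 2622. The shared fit called 12 in place of 1850 there, and 1291 in place of 0 between the rCD5L groups, where it called 1 further induced, 1 repressed and 2 clock genes and DESeq2 called 1 clock gene. For rCD5L in WT, DESeq2 called 1 member (Mt1) and 1 further induced gene, and the fit without a filter called 1 further induced gene and 137 genes in all. The causes of these moves were not tested.

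Directions turned for values near 0. Between the rCD5L groups, Fkbp5 came to 0.021 and Nr3c1 to 0.037 with the length offset. For rCD5L in CD5L KO, Mt2 came to -0.0078 and -0.018 on the FPKM scales, and Nr3c1 to -0.0028 without a filter and to -0.015 and -0.018 on the FPKM scales. Between the PBS groups Nr3c1 came to -0.0054 and -0.0059 on the FPKM scales. For rCD5L in CD5L KO the replicate block gave -0.19 for Slc10a6, -0.16 for Tsc22d3 and -0.043 for Nr3c1.

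Whether the replicate numbers pair the kidneys was not settled. Proximal tubule sums of kidneys 1 to 4 were 3320, 4470, 7470 and 5130 CPM in CD5L KO + PBS. In WT + PBS they were 3520, 4170, 7480 and 5060 CPM. Over all genes the likeness of same-numbered kidneys was weak. The correlation of same-numbered deviations ran from -0.049 to 0.117 for PBS, -0.187 to -0.0018 for rCD5L, 0.0165 to 0.174 in CD5L KO and -0.0477 to 8.4e-06 in WT. The replicate block called 2132 genes in place of 1850 between the PBS groups and 0 in every other comparison, as without it. Between the PBS groups it lowered the SE of Tsc22d3 from 0.198 to 0.083 and that of Sgk1 from 0.195 to 0.095. The SE of Zbtb16 fell from 0.426 to 0.259, while that of Hif3a rose from 0.213 to 0.218. The block also moved values that were not called. Between the rCD5L groups it gave -0.82 ± 0.52 for Zbtb16, -0.56 ± 0.46 for Hif3a, -0.27 for Fkbp5, -0.16 for Tsc22d3, -0.13 for Klf9, 0.43 ± 0.37 for Sgk1 and 0.38 for Mt2. For rCD5L in CD5L KO it gave 0.37 ± 0.54 for Zbtb16, 0.034 for Hif3a, 0.18 for Fkbp5 and 0.52 for Sgk1.

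With each kidney left out in turn, members without overlap numbered 3 to 5 and those at -1 or below 2 to 4. Calls in the lists between the PBS groups were 1 to 5 (further induced), 1 to 2 (repressed), 0 to 2 (receptor machinery), 0 to 3 (metal) and 1 to 2 (clock), and members called for rCD5L in WT were 0 to 1. Between the PBS groups the fold changes ran from -0.31 to 0.026 for Mt1, -0.23 to 0.42 for Mt2 and -0.029 to 0.090 for Nr3c1. Between the rCD5L groups they ran from -1.33 to 0.22 for Zbtb16, -0.94 to 0.027 for Hif3a, -0.32 to 0.0096 for Fkbp5, -0.42 to 0.069 for Tsc22d3, -0.34 to 0.090 for Klf9, -0.016 to 0.80 for Mt2 and -0.15 to 0.053 for Nr3c1. For rCD5L in CD5L KO they ran from -0.18 to 0.50 for Slc10a6, -0.20 to 0.39 for Tsc22d3, -0.15 to 0.31 for Mt1, -0.52 to 0.63 for Mt2 and -0.063 to 0.13 for Nr3c1. For rCD5L in WT they ran from -0.22 to 0.013 for Tsc22d3 and -0.0048 to 0.16 for Klf9. The interaction ran from -0.037 to 0.63 for Slc10a6, -0.088 to 0.49 for Tsc22d3, -0.013 to 0.44 for Klf9, -0.26 to 0.87 for Mt2 and -0.16 to 0.053 for Nr3c1. The lowest depth was that of Hif3a, at 10 to 132 counts per kidney.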
